A study of Mus musculus with 4 samples.

Results

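Genes of cholesterol and fatty acid synthesis were examined in tail tip fibroblasts (TTFs) as 35 genes chosen by symbol, of 23924 genes in the FPKM matrix. All 35 were found: 24 belong to the sterol branch and 11 to the fatty acid branch. The cells were skin fibroblasts of male mice of the C57BL/6J-TgBAC8-2087 line, either Tg2087/+ (TG) or +/+ littermates (WT), with 2 libraries for each genotype. All 4 libraries came from cells immortalized with SV40 large T, which are tetraploid in both genotypes, grown in medium with fetal bovine serum. TG cells carry, on an autosome, a transgene of the X-inactivation center (*Xic*) that includes *Xist*, the non-coding RNA that silences the X chromosome in female cells. The age of the mice, and whether libraries of the same genotype are from different mice or cultures, are not given in the sources used here. The p-values thus rest on the spread between these libraries, which may be technical. FPKM, the unit of all levels below, counts sequenced fragments relative to the length of the gene and the size of the library.

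Cells make cholesterol from acetyl-CoA. Acetyl-CoA units are joined into mevalonate, mevalonate is turned into isoprenoid diphosphates and then squalene, squalene is closed into lanosterol, and a chain of reactions in the endoplasmic reticulum turns lanosterol into cholesterol. Fatty acid synthesis starts from the same acetyl-CoA, builds palmitate, and then lengthens and desaturates the chain. Many genes of both branches are targets of the SREBP transcription factors, which are encoded by *Srebf1* and *Srebf2*, escorted by SCAP and held back in the endoplasmic reticulum by INSIG proteins when sterols are plentiful. Fibroblasts in culture run both routes for their membranes.

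Both branches were expressed at moderate to high levels in WT and TG cells, and 1 of the 33 members that could be tested passed an adjusted p of 0.05. The other 2 of the 35, the sterol exporters *Abca1* and *Abcg1*, were below the level that the test required. *Sc5d*, which encodes the sterol desaturase that acts just before the final reduction to cholesterol, fell in TG from a mean of 69.7 to 41.7 FPKM. No member of the fatty acid branch passed the test. Not passing does not show that a member was unchanged. TG was compared with WT by limma on log2(FPKM + 0.5) over the 11524 genes whose FPKM averaged 0.5 or more. Limma draws the variance of each gene toward that of genes at a similar level. Its p-values and standard errors are thus not the spread of a single gene's libraries alone. The p-values were adjusted over all tested genes by the Benjamini-Hochberg method. At an adjusted p under 0.05, this called 1 of 33 members (3.03%) and 4.13% of all tested genes, of which 1.54% were lower and 2.59% higher in TG. The adjusted p of *Sc5d*, 0.0452 by limma, lay near this threshold and stayed under it in 5 of 13 alternative settings. At the study's thresholds, an adjusted p below 0.01 together with a 2-fold change, limma called none of the 33 and 1.08% of all tested genes. The study applied these thresholds to another test, DESeq, so these calls are not those of the study. By limma even *Xist* did not pass them (adjusted p = 0.0112). Before adjustment, a p under 0.05 was found for 2 members (6.06%), *Sc5d* and *Mvk*, beside 19.6% of all tested genes. Limma's voom method, run on whole reads worked out from the FPKM values, also called *Sc5d* alone among the members, beside 8.01% of all tested genes. The FPKM values fix the reads of *Sc5d* only up to a common factor, so the weight that voom gave it is uncertain.

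The fitted changes of the members were small. The median log2 fold change was 0.024 over both branches, 0.025 in the sterol branch and 0.001 in the fatty acid branch, beside 0.071 over all tested genes. With upper-quartile scaling, quantile normalization or voom, both branch medians turned slightly negative, to between −0.069 and −0.032, as the median of all genes fell to between −0.013 and 0.009. Leaving out 1 library moved the medians further, the sterol one from −0.09 without WT 2 to 0.103 without WT 1, and the fatty acid one from −0.108 without TG 1 to 0.152 without TG 2. In size, without the sign, the median was 0.129 for the members and 0.263 for all tested genes. The 95% confidence interval of the log2 fold change lay within −1 and 1, a change of less than 2-fold either way, for 30 of 33 members (90.9%) and for 67.1% of all tested genes. The 3 members with a wider or more distant interval were *Sc5d*, *Mvk* and *Idi1*. The members were also more abundant than tested genes in general, with a median of the mean FPKM of 45.7 beside 10.4. The part of this level in their smaller changes and narrower intervals was not tested. Both TG libraries lay below both WT libraries for 8 members (24.2%, beside 20.3% of all tested genes) and above them for 5 members (15.2%, beside 30.2%), and the groups overlapped for the other 20.

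**Figure D1:**
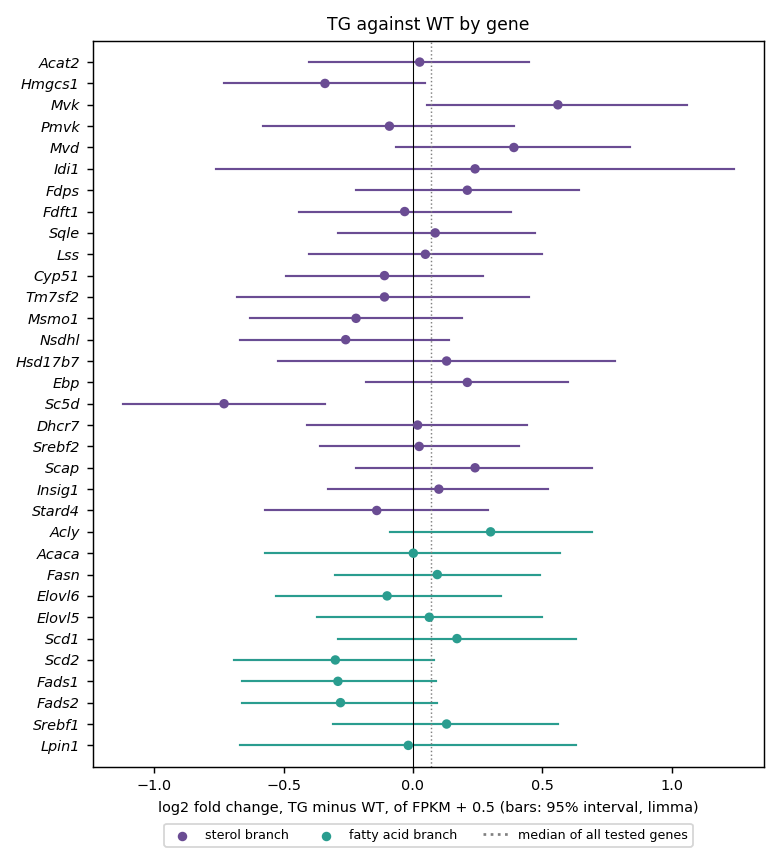
Log2 fold change of TG against WT for each of the 33 tested members, fitted by limma on log2(FPKM + 0.5), with bars for the 95% confidence interval, purple for the sterol branch and green for the fatty acid branch; the dotted line is the median of all tested genes (0.071). The interval of *Sc5d* (−1.12 to −0.34) lies farthest from 0, and all but that of *Mvk* among the others include 0.

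The 2 WT libraries differed by a median of 0.212 on the log2 scale over the members (0.244 over all tested genes), and the 2 TG libraries by 0.119 (0.232). Standard errors of the members' log2 fold changes lay between 0.17 and 0.45. The libraries held between 9465712 and 14639946 reads, so the deepest, WT 2, had 1.55 times the reads of the shallowest, WT 1. For a single value, the smallest p that exact permutation of the 4 libraries allows is 0.333.

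The first 7 members of the sterol branch carry acetyl-CoA through mevalonate to farnesyl diphosphate, and no member of this group passed the test. *Pmvk*, which encodes phosphomevalonate kinase, had the highest level of the sterol branch, with 122 FPKM in WT 1 and 105 in WT 2, and 86.1 in TG 1 and 132 in TG 2. The 2 TG libraries lay on either side of both WT libraries, and its log2 fold change was −0.091 ± 0.22 (SE, n = 2 and 2). *Hmgcs1*, which encodes the synthase that makes HMG-CoA, had 99.3 and 107 FPKM in WT, against 87.2 and 75.9 FPKM in TG. Both TG libraries were the lower ones, with a log2 fold change of −0.34 ± 0.17 (SE) and an adjusted p of 0.319 by limma.

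*Mvk*, which encodes mevalonate kinase, had a log2 fold change of 0.56 ± 0.23 (SE), which depended on the WT libraries: it was 0.22 without WT 2 and 0.89 without WT 1. Its levels were 46.1 FPKM in WT 1 and 28.9 in WT 2, and 52.0 in TG 1 and 55.9 in TG 2. The gap between the 2 WT libraries was larger than that between WT 1 and either TG library. The limma p was 0.0327 before and 0.205 after adjustment. *Mvd*, which encodes the decarboxylase that makes isopentenyl diphosphate, had the same order of libraries, with 49.3 and 34.6 FPKM in WT, 52.4 and 56.0 FPKM in TG, and an adjusted p of 0.335.

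*Acat2*, the thiolase that joins 2 molecules of acetyl-CoA, and *Fdps*, farnesyl diphosphate synthase, had overlapping groups with mean levels of 36.8 and 70.9 FPKM over all libraries. *Idi1*, which encodes the isomerase of isopentenyl diphosphate, had the lowest level of the tested sterol genes. It had 0.544 FPKM in WT 1 and 0.729 in WT 2, and 1.36 in TG 1 and 0.466 in TG 2, which correspond to 14, 29, 44 and 14 reads. TG 1 was the highest and TG 2 the lowest library, and the 95% interval of its log2 fold change, −0.76 to 1.24, leaves a change of more than 2-fold upward possible. The other 6 genes of this group were at 28.9 FPKM or above in every library.

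The 3 genes from squalene to lanosterol had TG means of 0.977 to 1.06 times the WT means, and none passed the test. *Fdft1*, squalene synthase, had means of 37.1 ± 4.11 FPKM in WT and 36.2 ± 3.60 in TG (SD, n = 2 each). *Sqle*, the squalene epoxidase that catalyses a rate-limiting oxygenation, had 57.4 and 57.7 FPKM in WT, against 63.8 and 58.6 FPKM in TG. Both TG libraries of *Sqle* lay above both WT libraries by a narrow margin, with a log2 fold change of 0.086 ± 0.17 (SE). *Lss*, lanosterol synthase, was at 14.4 ± 1.39 FPKM in WT and 15.0 ± 1.85 in TG (SD, n = 2 each).

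The 8 genes from lanosterol to cholesterol held the only call. *Sc5d* lies on chromosome 9 at positions 42251592 to 42264300 of GRCm38 (mm10). It had 65.3 FPKM in WT 1 and 74.0 in WT 2, and 41.0 in TG 1 and 42.5 in TG 2. Both TG libraries were well below both WT libraries, and the gap between the groups exceeded the distance between libraries of a group. The mean was 69.7 ± 6.09 FPKM in WT and 41.7 ± 1.07 FPKM in TG (SD, n = 2 each), so the level fell by 40.1% (TG/WT 0.599). The log2 fold change was −0.73 ± 0.17 (SE), with a 95% interval of −1.12 to −0.34 and an adjusted p of 0.0452 by limma. In bulk RNA, fewer cells that express a gene and less RNA per cell cannot be told apart.

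The call of *Sc5d* lay near its threshold, and the size of the fall was steadier than the call. Over 13 alternative settings the log2 fold change lay between −0.85 and −0.64, and the adjusted p between 0.00768 and 0.245, with 5 of 13 under 0.05. Without WT 1 the log2 fold change was −0.82, without WT 2 −0.64, without TG 1 −0.7 and without TG 2 −0.76, and the call was lost each time. Each of these fits leaves 1 genotype with a single library, so the loss cannot be tied to a particular library.

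The genes on either side of *Sc5d* in the pathway did not pass the test. *Dhcr7*, the reductase that makes cholesterol from the product of the SC5D reaction, had means of 24.9 ± 2.52 FPKM in WT and 25.2 ± 2.93 in TG (SD, n = 2 each). Within each library, *Sc5d* was 2.83 and 2.77 times *Dhcr7* in WT and 1.77 and 1.56 times in TG. This ratio is not affected by how a library is scaled, and it separated the groups (exact two-sided permutation p = 0.333, the smallest possible here). *Ebp*, the sterol isomerase that acts before SC5D, had 54.1 and 46.7 FPKM in WT, against 59.7 and 56.9 FPKM in TG, and its log2 fold change was 0.21 ± 0.18 (SE). *Sc5d* over *Ebp* was 1.21 and 1.59 in WT and 0.686 and 0.746 in TG. Against the geometric mean of the 17 other sterol enzymes, *Sc5d* stood at 2.04 and 2.43 in WT and at 1.21 and 1.37 in TG. These ratios were chosen after the values of *Sc5d* had been seen.

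**Figure D2:**
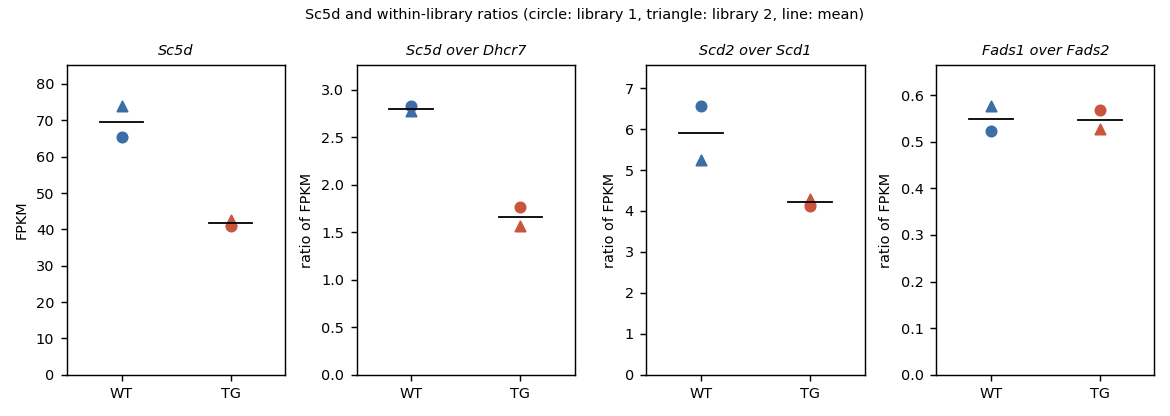
Level of *Sc5d* in FPKM and 3 ratios of FPKM within a library, *Sc5d* over *Dhcr7*, *Scd2* over *Scd1* and *Fads1* over *Fads2*, for WT (blue) and TG (red), with a circle for library 1, a triangle for library 2 and a line for the mean of 2 libraries. The groups stand apart for *Sc5d* (65.3 and 74.0 against 41.0 and 42.5 FPKM) and for the ratios that hold *Sc5d* or *Scd2*, and they overlap for *Fads1* over *Fads2*.

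The other members of the group after lanosterol did not pass the test. *Cyp51*, the lanosterol demethylase, had 109 and 108 FPKM in WT, against 107 and 94.6 FPKM in TG, and *Msmo1*, the sterol methyl oxidase, had 102 and 113 FPKM in WT, against 103 and 81.7 FPKM in TG. *Nsdhl*, which works with *Msmo1* in removing methyl groups, lies on the X chromosome and had 43.5 and 53.0 FPKM in WT, against 39.2 and 40.7 FPKM in TG. Both TG libraries of *Cyp51* and of *Nsdhl* were lower than both WT libraries, with log2 fold changes of −0.11 ± 0.17 and −0.26 ± 0.18 (SE). *Hsd17b7*, the ketoreductase of the same methyl-removing complex, is the only member on chromosome 1. It had 3.96 FPKM in WT 1 and 7.59 in WT 2, and 6.10 in TG 1 and 6.05 in TG 2, so the WT libraries enclosed the TG libraries. *Tm7sf2*, a sterol reductase, was the other gene of low level, with a mean of 8.16 FPKM over all libraries. The median log2 fold change of these 8 genes was −0.112, beside 0.211 for the 7 mevalonate genes and 0.048 for the 3 genes between them.

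The 3 regulators among the sterol members, *Srebf2*, *Insig1* and *Scap*, overlapped between the groups. *Srebf2*, which encodes the SREBP that acts mainly on sterol genes, had 72.6 and 62.5 FPKM in WT, against 68.2 and 68.8 FPKM in TG. Its log2 fold change was 0.024 ± 0.17 (SE), with a 95% interval of −0.36 to 0.41. *Insig1*, itself a target of the SREBPs, had 53.9 and 41.0 FPKM in WT, against 48.8 and 52.0 FPKM in TG. *Scap* had 30.7 and 26.6 FPKM in WT, against 39.5 and 28.9 FPKM in TG, with TG 1 the highest library. Neither showed groups that stood apart.

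Of the 3 sterol transport genes, 1 was expressed above the level the test required. *Stard4*, which carries cholesterol between membranes, had 13.9 and 13.6 FPKM in WT, against 12.4 FPKM in both TG libraries. The libraries of a genotype lay close together and the groups did not overlap, yet the log2 fold change was only −0.14 ± 0.19 (SE) and the adjusted p 0.749. *Abca1* and *Abcg1*, cholesterol exporters that LXR receptors switch on when sterols accumulate, were almost silent. *Abca1* had 0.0522, 0.0608, 0.0664 and 0.152 FPKM in WT 1, WT 2, TG 1 and TG 2, from 5, 9, 8 and 17 reads. The exact Poisson interval of TG 2, 0.0885 to 0.243 FPKM, overlapped that of each other library, such as 0.0278 to 0.115 FPKM in WT 2. *Abcg1* had 3 reads in TG 1 (0.0444 FPKM) and 0 reads in the rest. A count of 0 is compatible with as many as 3 reads, or 0.0559 FPKM in WT 1, 0.0361 in WT 2 and 0.0478 in TG 2. A difference in either exporter was not detectable at this depth, and these intervals and limits cover counting error only.

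**Figure D3:**
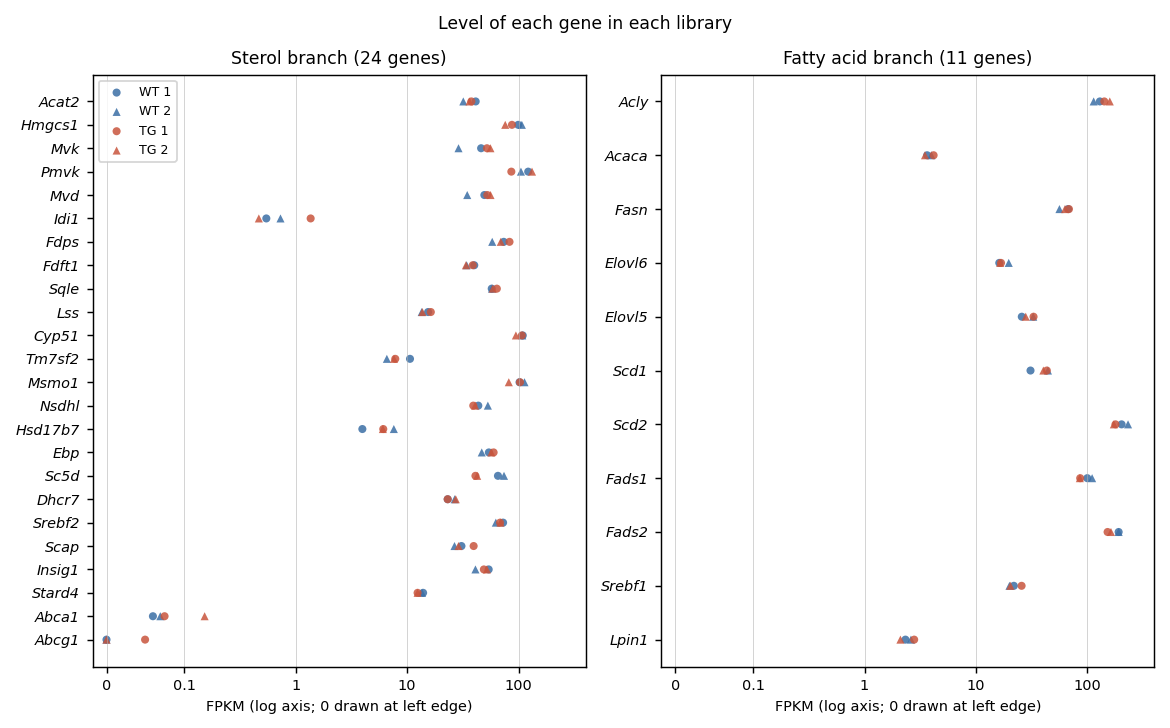
Level of each of the 35 members in each library in FPKM on a log axis, with 0 drawn at the left edge, sterol branch on the left and fatty acid branch on the right, WT in blue and TG in red, and circles and triangles for libraries 1 and 2. *Scd2* is the highest (173 to 232 FPKM), *Idi1* lies between 0.466 and 1.36, *Abca1* between 0.0522 and 0.152, and *Abcg1* at 0 in all but TG 1.

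The fatty acid branch held the highest levels of all members. None of the 3 genes that make palmitate passed the test. *Acly*, which supplies cytosolic acetyl-CoA from citrate, had 129.6 and 114 FPKM in WT, against 142 and 159 FPKM in TG. Both TG libraries were higher, with a log2 fold change of 0.30 ± 0.17 (SE) and an adjusted p of 0.384. *Fasn*, the synthase that builds palmitate, was at 61.7 ± 7.71 FPKM in WT and 65.7 ± 3.85 in TG (SD, n = 2 each). *Acaca*, an acetyl-CoA carboxylase, was at 3.82 ± 0.235 FPKM in WT and 3.83 ± 0.483 in TG (SD, n = 2 each). The carboxylase transcript was thus the least abundant of the 3 in each library.

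None of the 4 desaturase genes passed the test, and 3 of them had TG values below those of WT throughout, an order found for 20.3% of all tested genes. *Scd2*, a stearoyl-CoA desaturase that makes monounsaturated fatty acids, had the highest level of any member, with 203 and 232 FPKM in WT, against 179 and 173 FPKM in TG. *Fads1*, a desaturase of polyunsaturated fatty acids, had 99.9 and 110.4 FPKM in WT, against 86.3 and 85.7 FPKM in TG. *Fads2*, which acts before *Fads1* on the same chains, had 191 FPKM in both WT libraries and 152 and 163 FPKM in TG. In each of the 3 genes both TG libraries were below both WT libraries, and the TG mean was 0.809, 0.818 and 0.822 times the WT mean. The log2 fold changes were −0.30, −0.29 and −0.28, each ± 0.17 (SE), with adjusted p-values of 0.376, 0.395 and 0.397 by limma. The median of the 4 desaturase genes was −0.284, beside 0.001 for the whole branch.

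*Scd1*, the close relative of *Scd2*, did not share that order. It had 30.9 FPKM in WT 1 and 44.3 in WT 2, and 43.3 in TG 1 and 40.3 in TG 2, so both TG libraries lay inside the range of WT, and its log2 fold change was 0.17 ± 0.21 (SE). *Scd2* over *Scd1* was 6.57 and 5.24 in WT and 4.13 and 4.29 in TG, a mean of 5.90 ± 0.939 against 4.21 ± 0.112 (SD, n = 2 each; exact two-sided permutation p = 0.333). The genes are neighbours on chromosome 19, *Scd2* from 44293676 to 44306864 and *Scd1* from 44394450 to 44407709, and how reads that match both were counted is not given in the sources used here. *Fads1* (10182877 to 10196874) and *Fads2* (10062765 to 10101503) are also neighbours on chromosome 19, and their ratio overlapped between the groups, with 0.522 and 0.577 in WT and 0.567 and 0.527 in TG.

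The 2 elongases had overlapping groups. *Elovl6*, which lengthens palmitate, had 16.2 and 19.7 FPKM in WT, against 16.8 and 16.5 FPKM in TG. *Elovl5*, which lengthens polyunsaturated chains, had 25.8 and 32.7 FPKM in WT, against 32.9 and 28.0 FPKM in TG. *Elovl5* over *Elovl6* was 1.60 and 1.66 in WT and 1.96 and 1.70 in TG, with means of 1.63 and 1.83. Both TG ratios were above both WT ratios, by a margin smaller than the distance between the TG libraries (exact two-sided permutation p = 0.333).

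*Srebf1*, which encodes the SREBP isoforms that act mainly on fatty acid genes, had 21.9 and 20 FPKM in WT, against 25.7 and 20.4 FPKM in TG. Its log2 fold change was 0.13 ± 0.20 (SE), and TG 2 lay between the WT libraries. In each library *Srebf1* was below *Srebf2*. *Lpin1*, a phosphatidate phosphatase of triglyceride synthesis, had the lowest level of the fatty acid branch, with 2.33 and 2.61 FPKM in WT, against 2.79 and 2.10 FPKM in TG. The TG libraries of *Lpin1* enclosed the WT libraries.

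**Figure D4:**
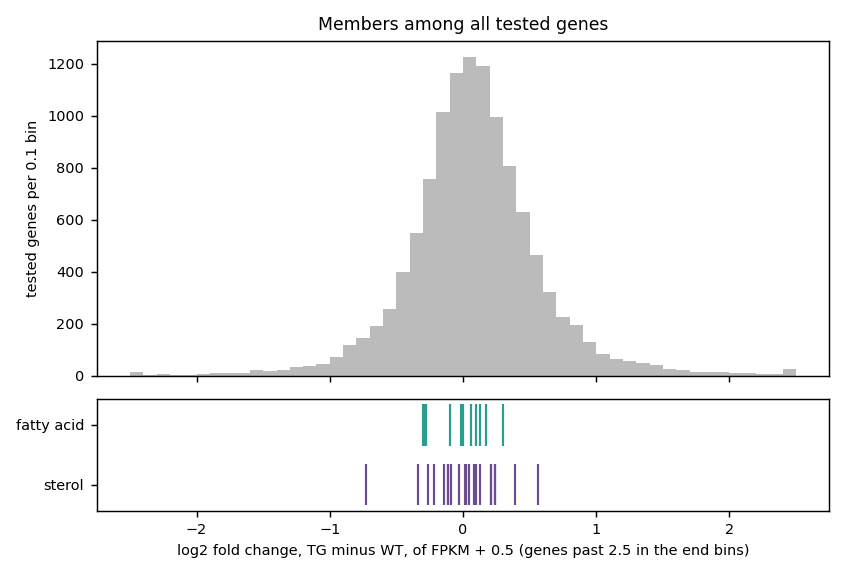
Histogram of the log2 fold changes of TG against WT of log2(FPKM + 0.5) over all 11524 tested genes in bins of 0.1, and below it a tick for each of the 33 tested members by branch; genes past 2.5 in size are in the end bins. The members lie between −0.73 (*Sc5d*) and 0.56 (*Mvk*), and all tested genes between −4.35 and 5.39.

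Few other genes of the same pathways were called, and only in other settings. A list of 24 further sterol genes, covering enzymes, uptake, export and regulators, had 22 tested genes, of which none passed an adjusted p of 0.05 by limma, while 5 (22.7%, beside 19.6% of all tested genes) had an unadjusted p under 0.05. Voom called 1 of the 22, *Nr1h2*, and limma with no variance trend called 1. A list of 37 further fatty acid genes had 27 tested genes, of which none passed, while 1 (3.7%) had an unadjusted p under 0.05. Voom called 1 of the 27, *Acsl4*. Over all tested genes, limma called 4.13% and voom 8.01%. The lowest adjusted p in either list was 0.068. The median log2 fold change over the 49 tested genes of both lists was 0.061.

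Windows around the starts of the members, from 250 bases before to 50 after, were searched for short motifs on both strands. RefSeq windows on GRCm38.p6 matched 27 of 35 members. The letters TCACNCCAC, a form of the sterol regulatory element that SREBPs bind, were found in 1 of 27 members, *Hmgcs1*, beside 1.44% of 27025 genes. CCAAT, the box bound by NF-Y, a factor known to act beside SREBPs, was found in 20 of 27 members (74.1%, beside 41.1% of all genes), 16 of 19 in the sterol branch and 4 of 8 in the fatty acid branch. The E-box CACGTG was found in 7 of 27 members (25.9%, beside 8.09%). The LXR element, a repeat of the nuclear receptor half-site with 4 bases between, was found in none of the 27 and in 0.0148% of all genes. The 27025 genes were not matched to the members in level of expression, and the part of that level in these shares was not tested. A match is only a description of the letters, and no match says only that these letters are not in the window.

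The 250 bases before the start of *Sc5d*, the member that was called, and of *Hmgcs1*, the member with the sterol regulatory element, are given 5′ to 3′ on the strand of the gene. They are chr9:42264301-42264550 on the minus strand and chr13:119690101-119690350 on the plus strand of GRCm38.p6. Capitals mark the matches: in *Sc5d* CACGTG 98 bases and ATTGG (the reverse complement of CCAAT) 24 bases before the start, and in *Hmgcs1* TCACCCCAC 137 bases and ATTGG 237, 176 and 45 bases before the start.
Sc5d: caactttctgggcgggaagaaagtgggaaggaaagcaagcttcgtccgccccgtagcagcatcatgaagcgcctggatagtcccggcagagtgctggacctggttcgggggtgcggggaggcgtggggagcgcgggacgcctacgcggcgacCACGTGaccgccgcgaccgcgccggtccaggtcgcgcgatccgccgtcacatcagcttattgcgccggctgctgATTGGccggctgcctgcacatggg
Hmgcs1: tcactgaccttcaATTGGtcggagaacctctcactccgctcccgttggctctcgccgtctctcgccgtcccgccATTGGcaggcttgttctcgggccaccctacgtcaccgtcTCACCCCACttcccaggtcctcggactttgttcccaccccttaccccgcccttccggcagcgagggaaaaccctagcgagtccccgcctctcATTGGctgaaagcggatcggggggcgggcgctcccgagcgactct

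The 35 members lie on 17 chromosomes, with 5 on chromosome 19, 3 on chromosome 9 and 2 on X. Within 1 Mb of *Sc5d* there were 6 other tested genes, 3 with a fitted change below 0 and 3 above, with a median log2 fold change of −0.04 and a range of −1.35 to 1.28. Only *Oaf*, named after its values were seen, passed an adjusted p of 0.05 among them, as 4.13% of all tested genes did. It rose, from 19.2 and 14.0 FPKM in WT to 36.0 and 45.8 FPKM in TG (adjusted p = 0.0106 by limma). *Sorl1*, also named after its values were seen, had 115 and 139 reads in WT and 15 and 5 in TG, or 1.1 and 0.856 FPKM against 0.113 and 0.0407 FPKM, with an adjusted p of 0.135. Both TG libraries of *Sorl1* were far below both WT libraries, a difference (TG/WT 0.079) that its log2 fold change of −1.35, computed with 0.5 added to each low value, understates. *Tlcd5*, named in the same way, had 0.833 and 0.798 FPKM in WT, against 0.318 and 0.317 FPKM in TG, with an adjusted p of 0.424. In the other direction, *Mir100hg* was higher in both TG libraries (TG/WT 1.68). Its log2 fold change was 0.7 ± 0.23 (SE), with an adjusted p of 0.117 by limma. The groups overlapped for the remaining neighbours, *Arhgef12* and *Tbcel*. Over all tested genes, both TG libraries lay below both WT libraries for 20.3% and above them for 30.2%. The other members on chromosome 9, *Scap* and *Elovl5*, had fitted changes of 0.24 and 0.063 on the log2 scale, the second of which turned negative with upper-quartile scaling, quantile normalization and voom.

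*Xist* had 0 and 0.108 FPKM in WT, against 2.31 and 2.28 FPKM in TG (adjusted p = 0.0112 by limma), so it was higher in both libraries labelled TG. Of 10 fibroblast markers, 7 were above 1 FPKM in all 4 libraries, *Lum* was at 0 in all of them, *Dcn* was at 0.878 FPKM or below, and the summed level was 5596 to 6007 FPKM in WT and 5192 to 5642 FPKM in TG, with *Col1a1* and *Pdgfrb* lower in TG at an adjusted p under 0.05, which 4.13% of all tested genes passed. *Col1a2*, *Col3a1* and *Thy1* were also lower in both TG libraries (TG/WT 0.64, 0.785 and 0.8; adjusted p = 0.143, 0.313 and 0.402 by limma). That order was found for 20.3% of all tested genes. *Pdgfra* had the opposite order, 0.0999 and 0.307 FPKM in WT, against 0.823 and 1.13 FPKM in TG (adjusted p = 0.218 by limma). *Vim* was also higher in both TG libraries (adjusted p = 0.737 by limma), as was *Dcn* at its low level. Most of the summed level came from *Vim* and *S100a4*, with means of 2325 and 1680 FPKM over all libraries. Markers of the lipid-storing cells of skin were near 0. The 6 adipocyte markers summed to between 1.67 and 5.07 FPKM in WT and between 2.72 and 3.0 FPKM in TG, with 4 of 6 at 0 throughout (*Adipoq*, *Plin1*, *Cidec* and *Cfd*), and the 5 sebocyte markers to between 0.581 and 0.954 FPKM in WT and between 0.660 and 0.885 FPKM in TG. Markers of keratinocytes, endothelial cells, Schwann cells or melanocytes and skeletal muscle summed to 3.15 FPKM or less in every library, and those of immune cells to 8.95 to 12.2 FPKM in WT and 5.21 to 11.4 FPKM in TG. Nearly all of the immune sum was *Cd68* (5.12 to 12.1 FPKM), while *Ptprc* and *Adgre1* were at 0 throughout and *Lyz2* at 0.0924 FPKM or below. The part of the fibroblast markers in the fall of *Sc5d* was not tested.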

How the data were processed

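RNA-seq libraries of immortalized TTFs, 2 WT and 2 TG, were assigned to genotypes from their labels. The authors aligned paired-end reads of polyadenylated, strand-specific cDNA to mm10 with Rsubread and made a count table, which they turned into FPKM, the deposited unit. The authors tested expression with DESeq. Versions, and whether counting used the strand, are not given in the sources used here.

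The count test was not run on FPKM. Limma 3.58.1 in R 4.3.3 (lmFit, eBayes with a variance trend, two-sided) was applied to log2(FPKM + 0.5) of the 11524 genes whose FPKM averaged 0.5 or more, and p-values were adjusted by the Benjamini-Hochberg method. Fold changes on this scale understate those of low genes. Whole reads were worked out from the ratios of FPKM values between libraries and gave the library totals, the reads of low genes and the counts for voom. Positions and promoter windows came from RefSeq (GRCm38.p6), matched by symbol. Tests were tried on simulated data.

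The members, branches, marker lists and further pathway genes were chosen with earlier results of these data known. Values by library are given for members past an adjusted p of 0.05, for the highest and lowest member of each branch, for the SREBP genes, *Insig1*, *Scap* and 4 pairs of related genes, and for members whose groups did not overlap or that help to read their step, the last chosen after their values were seen. Alternatives were 2 other pseudocounts, 2 other filters, a constant prior variance, a replicate block, scaling to the upper quartile, quantile normalization, voom, each library left out, and ratios within a library, which were added after seeing the data.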

Additional observations from a re-analysis of the deposited data

How the results depend on the processing

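The fall of *Sc5d* kept its direction in all 13 alternatives, and no fatty acid member was called in any of them. Its call, and with it the count of sterol members (1), was lost (0) with a pseudocount of 0.1 (adjusted p = 0.0502), all genes above 0 (0.107), no variance trend (0.136), the replicate number as a block (0.109) and each library left out in turn (0 each time, log2 fold change −0.82 to −0.64). Limma called it with a pseudocount of 1 (0.0439), a mean FPKM of at least 1 (0.0421), upper-quartile scaling (0.0349) and quantile normalization (0.0319), and voom called it too (0.00768), on reads known for this gene only up to a common factor. With 1 library left out, the lone library of its genotype is assumed to vary like the others.

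Over all genes, those past the study's thresholds in the main limma fit, not in the study's own test, numbered 54 down and 70 up. They became 1 and 0 with all genes above 0, 6 and 3 without the variance trend, 8 and 12 under the replicate block and 150 and 123 with voom, and 1 to 47 and 0 to 66 with a library left out. Genes past an adjusted p of 0.05 numbered 178 lower and 298 higher, and became 22 and 22, 101 and 153, and 64 and 114 under the first 3 of these, 511 and 412 with voom, and 20 to 135 and 46 to 232 with a library left out. The lowest of each leave-one-out range came without WT 1 or WT 2. Replicate numbers did not pair the libraries: deviations from the group means of libraries with the same number correlated at r = −0.028 across genes. The block took all genes past an adjusted p of 0.05 from 476 to 178. The causes were not tested.

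Of the values for the 33 tested members under the alternatives, 374 kept direction and side of the threshold, 8 (all of *Sc5d*) lost the call and 46 turned sign, in 18 members; none of those 18 was called. Upper-quartile scaling turned *Acat2* (−0.042), *Lss* (−0.018), *Dhcr7* (−0.05), *Srebf2* (−0.044), *Acaca* (−0.06) and *Elovl5* (−0.0046). Quantile normalization turned the same 6 (−0.056, −0.0052, −0.047, −0.11, −0.052 and −0.014) and *Sqle* (−0.021), *Insig1* (−0.0065) and *Fasn* (−0.029). Voom also turned the 6 (−0.025, −0.0079, −0.059, −0.038, −0.069 and −0.012). With a library left out, the log2 fold change ranged from −0.15 to 0.21 for *Acat2*, −0.4 to 0.22 for *Pmvk*, −0.23 to 0.71 for *Idi1*, −0.14 to 0.079 for *Fdft1*, −0.074 to 0.17 for *Lss*, −0.44 to 0.22 for *Tm7sf2*, −0.3 to 0.56 for *Hsd17b7*, −0.1 to 0.13 for *Dhcr7*, −0.083 to 0.13 for *Srebf2* and −0.1 to 0.29 for *Insig1*. In the fatty acid branch it ranged from −0.11 to 0.12 for *Acaca*, −0.032 to 0.22 for *Fasn*, −0.23 to 0.041 for *Elovl6*, −0.1 to 0.23 for *Elovl5*, −0.083 to 0.43 for *Scd1*, −0.034 to 0.29 for *Srebf1* and −0.19 to 0.15 for *Lpin1*. Without a turn of sign, it ranged from 0.22 (without WT 2) to 0.89 (without WT 1) for *Mvk* and from 0.13 to 0.64 for *Mvd*, also set by the WT libraries. The sterol median ranged from −0.09 to 0.103 and the fatty acid median from −0.108 to 0.152. Depth limits *Abca1* and *Abcg1*. For *Idi1*, the counting intervals of TG 1 (0.986 to 1.82 FPKM) and TG 2 (0.255 to 0.781 FPKM) do not overlap, so these libraries differ by more than counting error.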
